A study of Mus musculus with 4 samples.

Results

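The genes described here encode the proteins of the cytosolic ribosome. They were chosen by name, as the rows of the deposited table whose identifier belongs to a protein-coding gene called Rpl or Rps with a number and an optional suffix, or Rplp0, Rplp1, Rplp2 or Rpsa. S6 kinases and genes named as pseudogenes were left out. This gave 81 of 38293 rows, with 49 genes for the large (60S) subunit and 32 for the small (40S) subunit. Rps3a1, whose name has a digit after its letter, fell outside the rule, as did Rpl22l1 and Rpl7l1, and Rpl24 was not analysed here.

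Polyadenylated RNA was sequenced from the ventricles of 4 mouse embryos at stage E12.5, all from litter 6 on a C57BL/6 background, after the atria and the valve region had been cut away. The 2 conditional knockouts, called cKO here, were Hif1alphaflox/flox/Nkx2.5Cre/+, and the 2 littermate controls were Hif1alphaflox/flox/Nkx2.5+/+. Both groups therefore carry the floxed Hif1a allele on both chromosomes, and the cKO embryos alone carry Cre, which is expressed from the Nkx2-5 locus in heart muscle precursors and some other cells of the early heart. No group had Cre without the floxed allele, so effects of Cre or of the altered Nkx2-5 locus cannot be told apart from those of Hif1a loss. Each group has replicates numbered 2 and 3, 1 embryo each, and p-values measure the spread between these single embryos.

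Each ribosome is built from ribosomal RNA and one copy of nearly every ribosomal protein, so the messages of these genes are needed in similar amounts. They are short and abundant, and in vertebrates they carry a run of pyrimidines at the very start, the 5′ terminal oligopyrimidine tract, through which mTORC1 controls their translation. The same abundance has seeded the genome with processed pseudogenes, which are reverse-transcribed copies that often match the parent over whole reads. In the embryonic heart, growth of the ventricular wall relies on high protein synthesis. Loss of a single ribosomal protein is known to disturb development and to activate p53, partly through Rpl5 and Rpl11, which bind Mdm2 together with 5S ribosomal RNA.

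Because reads here were single and 75 bases long, how closely a gene matches its copies decides what a count can say about it. The following stretches are coding sequence of one read length, taken from GENCODE transcripts on GRCm38 and written 5′ to 3′. They are shown because the counts of these genes and their copies, given further on, either could not be separated or were separated differently from library to library. The first 3 lines each hold for both genes named, which are identical there, and the last 4 are pairs that differ at the base in capitals, with positions counted from 1 at the 5′ end of the stretch.
Rps27 (chr3:90213227-90213301, minus strand) and Rps27rt (chr9:114982627-114982701, minus strand): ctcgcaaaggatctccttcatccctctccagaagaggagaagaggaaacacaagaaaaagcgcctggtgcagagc
Rps6 (chr4:86856785-86856859, minus strand) and Rps6-ps4 (chr2:75191742-75191816, minus strand): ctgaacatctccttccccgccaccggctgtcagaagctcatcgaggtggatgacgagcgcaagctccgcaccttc
Rpl5 (chr5:107902022-107902096, plus strand) and Gm15500 (chr7:114706016-114706090, minus strand): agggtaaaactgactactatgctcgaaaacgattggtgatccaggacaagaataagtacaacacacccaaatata
Rpl29 (chr9:106431192-106431266, plus strand): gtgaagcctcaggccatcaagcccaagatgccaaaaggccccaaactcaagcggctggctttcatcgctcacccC
Gm13841 (chr5:115801860-115801934, minus strand): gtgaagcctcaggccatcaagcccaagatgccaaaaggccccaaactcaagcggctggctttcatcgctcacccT
Rpl34 (chr3:130729076-130729150, minus strand): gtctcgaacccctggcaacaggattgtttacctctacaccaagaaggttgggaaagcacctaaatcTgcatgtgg
Rpl34-ps1 (chr6:71124675-71124749, plus strand): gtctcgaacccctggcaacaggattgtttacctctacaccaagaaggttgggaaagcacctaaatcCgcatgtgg

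The Rpl29 stretch differs from its copy by C75T and the Rpl34 stretch by T67C, with the gene's base first. Over the whole coding sequence, Rps27 and Rps27rt were identical at all 252 bases, Rps6 and Rps6-ps4 at all 747, and Rpl5 and Gm15500 at all 891. Rpl29 and Gm13841 differed at 3 of 480 bases, so that 49.5% of the 75-base windows of the coding sequence were shared. Rpl34 and Rpl34-ps1 differed at 2 of 351 bases, with 60.6% of windows shared. A read from a shared window fits both genes equally well, and the authors' estimation divides it between them.

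The start sites of 4 of the genes, from RefSeq promoters on GRCm38.p6, are shown for their pyrimidine runs. Each line gives 20 bases before and 20 from the start site, with the run that touches the start in capitals.
Rps6 (chr4:86857348-86857387, minus strand): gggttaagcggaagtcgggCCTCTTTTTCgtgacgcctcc
Rpl38 (chr11:114668560-114668599, plus strand): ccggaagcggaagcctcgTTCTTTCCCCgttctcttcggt
Rps27 (chr3:90213629-90213668, minus strand): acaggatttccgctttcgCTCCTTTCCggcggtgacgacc
Rps27rt (chr9:114982720-114982759, minus strand): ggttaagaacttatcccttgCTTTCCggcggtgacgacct

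The run measured 10 bases at Rps6, whose protein is the substrate of the S6 kinases, and 10 at Rpl38, a protein of the large subunit needed for the translation of some Hox messages. It measured 9 bases at Rps27 and 6 at Rps27rt, a retrotransposed copy that is itself annotated as protein coding. RefSeq promoters of 300 bases, 250 before the start and 50 after it, were matched for 61 of the 81 genes and for 27025 genes in all. CTTTC or CTTTT, counted once where both occur, began within 10 bases of the start on the transcribed strand in 19 of the 61 (31.1%), against 6.51% of all promoters. CCGGAAGT, an ETS and GABP site, was present on either strand in 12 (19.7%) against 4.31%, and TGACGTCA, a CREB site, in 5 (8.20%) against 2.03%. GGGCGG, an SP1 site, was present in 37 (60.7%) against 38.2%. ACGTG, the core of the hypoxia response element to which HIF-1 binds, was present on either strand in 17 (27.9%), against 21.8% of all promoters. These are matches of letters, not evidence of binding.

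Total expected counts lay between 8561687 and 19801300. The deepest library, cKO replicate 3, came from the 1 male embryo (Xist at 2.12 CPM, against 1754 to 2097 CPM in the other libraries). CPM values here are counts relative to the library total, scaled by TMM. Control replicate 3 stood lowest of the 4 libraries for most of the genes described here. Hif1a itself stood at 689 ± 37.8 CPM in the cKO pair against 541 ± 15.9 in the controls (SD, n = 2 each); counts summed over a gene leave the deletion unchecked. Nkx2-5 stood at 43.2 ± 1.56 against 60.4 ± 6.39 CPM. Of the ventricular markers, Myl2 stood at 4352 to 5637 CPM and Myh7 at 10872 to 13228 CPM, in keeping with the labelled tissue. Liver markers summed to between 0.473 and 2.53 CPM.

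Ribosomal protein messages were a little more abundant in both cKO ventricles than in both controls, across nearly the whole set, and no single gene passed the test. The 81 genes together held 2.91% of all counts in cKO replicate 2 and 2.71% in cKO replicate 3. In control replicates 2 and 3 they held 2.52% and 2.19%. The group means were 2.81 ± 0.141% and 2.35 ± 0.236% (SD, n = 2 each), and the libraries did not overlap. The means differed by 0.453 percentage points. In bulk tissue, more cells of a type and more of these messages per cell cannot be told apart.

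Of the 81 genes, 77 passed the filter on low counts. The 4 that did not were Rps27 and Rpl10l, listed at 0 in every library, Rpl39l at 0.151 to 0.355 CPM and Rpl3l at 0.118 to 0.506 CPM. With edgeR's quasi-likelihood test, adjusted over all 13711 genes tested, 0 of the 77 were called at 0.05, against 0.511% of all genes called. The smallest adjusted p was 0.153. Without adjustment, 40 of the 77 (51.9%) had p under 0.05, all of them higher in cKO, against 6.97% of all genes in either direction and 3.39% higher. DESeq2 called 1 of them, Rpl10, where it called 0.7% of all genes, and gave 43 an unadjusted p under 0.05, against 3.71% of all genes. Limma-voom called 0, where it called 0.532% of all genes, and gave 48 an unadjusted p under 0.05, against 7.33% of all genes.

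In 64 of the 77 genes (83.1%) both cKO libraries lay above both controls, against 19.4% of all genes. The reverse held for 1 gene, Rps2, against 18.8% of all genes. In the other 12 genes the groups overlapped. The log2 fold change, always cKO over control, was positive for 75 of 77 genes (97.4%), against 49.9% of all genes. Its median over the 77 was 0.27, a 1.21-fold higher level, with quartiles of 0.20 and 0.34. Over all genes tested the quartiles were -0.11 and 0.12. The median standard error (SE) of a single gene's value was 0.113.

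**Figure D1:**
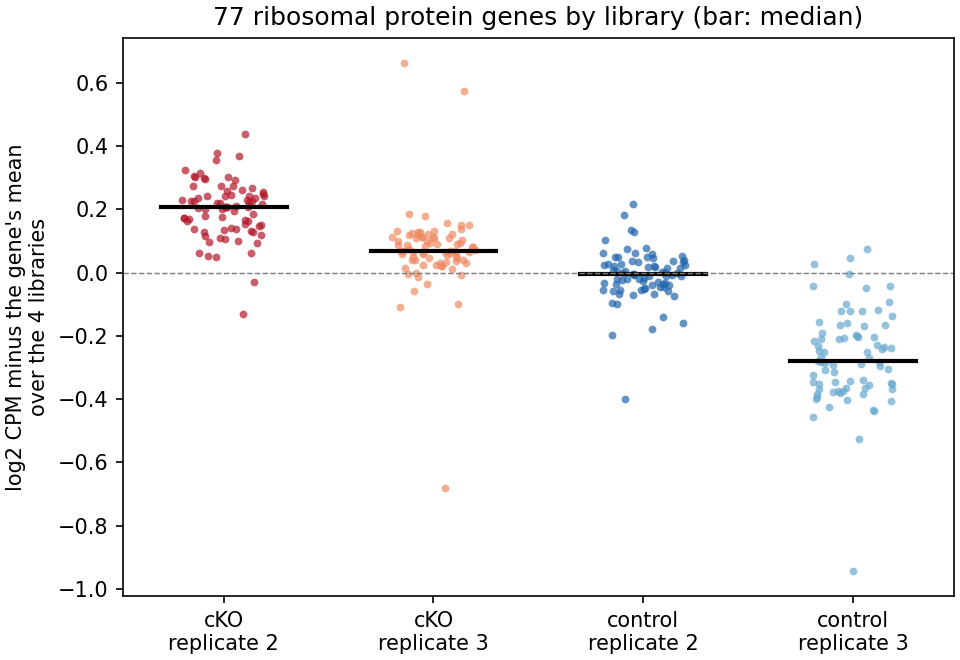
Log2 CPM of each of the 77 ribosomal protein genes minus that gene's mean over the 4 libraries, by library; each point is a gene and the bar is the median. The medians step down from 0.21 and 0.069 in cKO replicates 2 and 3 to -0.0035 and -0.28 in control replicates 2 and 3, and the largest step is between the 2 controls.

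The libraries also differed within each group, in the same way for most of these genes. From high to low, the order was cKO replicate 2, cKO replicate 3, control replicate 2, control replicate 3 in 60 of the 77 genes (77.9%), against 7.53% of all genes. Control replicate 2 lay above control replicate 3 in 71 of the 77 (92.2%), against 51.3% of all genes, by a median of 0.24 on the log2 scale. The 2 cKO libraries differed by a median of 0.13, with replicate 2 above replicate 3 in 71 genes. The corresponding medians over all genes were 0.0063 and 0.0018. The median log2 fold change of the 77 fell to 0.14 once control replicate 3 was dropped. Dropping cKO replicate 2 lowered it to 0.21, while dropping control replicate 2 raised it to 0.42.

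Short messages as a class were also shifted a little between libraries, in comparisons chosen after the data had been seen. Of the 77 genes, 63 had a median transcript length under 1000 bases. The 2411 other genes under that length had a median log2 fold change of 0.058, a median difference between the 2 controls of 0.060 and 27.8% with both cKO libraries above both controls. The 362 of comparable abundance, at 100 CPM or more, had 0.031, 0.050 and 27.9%. The 1692 longer genes of that abundance had a median of -0.027 and 14.3%. The ribosomal protein genes' 0.27, 0.24 and 83.1% were larger than those of any of these classes, and the part of length or RNA quality in them was not tested.

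The proteins of the large subunit and those of the small subunit gave near-equal values. Of the 46 large-subunit genes that passed the filter, 37 had both cKO libraries above both controls, against 19.4% of all genes, with a median log2 fold change of 0.27 and a range of -0.15 to 0.48. Of the 31 small-subunit genes, 27 did, with a median of 0.29 and a range of -0.13 to 0.69. The large-subunit genes held 1.70% and 1.59% of counts in the cKO libraries and 1.47% and 1.302% in the controls. The small-subunit genes held 1.202% and 1.12% against 1.05% and 0.884%. In both, the 4 libraries stood in the same order.

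Among large-subunit genes the smallest p belonged to Rpl10, whose protein joins the subunit late in its maturation and helps to shape the site where tRNAs are held. Rpl10 (ENSMUSG00000008682, GRCm38 chromosome X, 74270812 to 74273135) had 529.9 and 497 CPM in the cKO libraries and 391 in each control. Its log2 fold change was 0.39 ± 0.08 (SE; edgeR unadjusted p = 0.0014, adjusted p = 0.153; DESeq2 adjusted p = 0.0051). The 2 controls were level. Of its 75-base windows 28.9% are its own, or 72.8% over only the transcripts listed in the table. Its copy Rpl10-ps3, itself annotated as protein coding, had 219 and 216 CPM in cKO and 303 and 197 CPM in control, with overlapping groups. Summed with its copies, Rpl10 stood at 749.6, 713, 693 and 587 CPM, with a log2 fold change of 0.19 ± 0.10 (edgeR adjusted p = 0.747). The sum returned to the common order of libraries, and the gap between the groups narrowed.

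Rpl36, a small protein of the large subunit, had 142 and 126 CPM in cKO and 110.3 and 89.6 CPM in control, a log2 fold change of 0.42 ± 0.12 (adjusted p = 0.408). Rplp1, one of the acidic proteins of the stalk that recruits elongation factors, had 512 and 469 CPM against 409 and 372 CPM, and 0.33 ± 0.09 (adjusted p = 0.430). Rpl30 had 299 and 283 CPM against 250.1 and 215 CPM, and 0.32 ± 0.10 (adjusted p = 0.483). In all 3, every cKO library lay above every control. Rplp0, the base of the same stalk, differed less, at 1206 and 1119 CPM against 1061 and 1029.7 CPM and a log2 fold change of 0.15 ± 0.09. Rpl5 and Rpl11, the partners of 5S ribosomal RNA, had log2 fold changes of 0.27 ± 0.10 and 0.34 ± 0.11.

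Among small-subunit genes, Rps14, a protein of the subunit's platform, had 483 and 394 CPM in cKO and 355 and 289.8 CPM in the controls. Its log2 fold change was 0.44 ± 0.13 (edgeR adjusted p = 0.481). Rps7, needed for the processing of small-subunit RNA, had 420.3 and 342 CPM against 310.3 and 245 CPM, and 0.46 ± 0.14 (adjusted p = 0.503). Rps12 had 261 and 241 CPM against 214 and 183 CPM, and 0.34 ± 0.10 (adjusted p = 0.475). Rps3, a protein at the channel where mRNA enters, had 682 and 616 CPM against 551 and 459 CPM, and 0.36 ± 0.11 (adjusted p = 0.515). Every 75-base window of Rps3 is its own, though its counts were not whole in 2 libraries. All 4 followed the common order of libraries without overlap between groups. Summed with their copies, Rps14 had a log2 fold change of 0.44 ± 0.13, Rps7 0.38 ± 0.14 and Rps12 0.32 ± 0.12.

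The genes with the lowest fold changes were Rpl29 (-0.15), Rps2 (-0.13), Rpl27a (0.03), Rpl13 (0.09) and Rpl36al (0.10). Of these, Rpl29 and Rps2 were the only negative values, and both are cases of counts divided with a copy, described below. Rpl13 had 329.8 and 327 CPM in cKO and 324 and 293 CPM in control. Rpl27a had 70.9 and 66.3 CPM against 68.8 and 65.7 CPM, and its groups overlapped. Summed with their copies, Rpl13 had a log2 fold change of 0.19 ± 0.09, Rpl27a 0.16 ± 0.10 and Rpl36al 0.10 ± 0.10. Of the counts on Rpl13 and its copies, 68.9% and 70.5% were on the gene in cKO and 75.7% and 73.4% in control. The sign of Rpl27a turned when cKO replicate 2 or control replicate 3 was left out, and that of Rpl36al when control replicate 3 was.

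The 4 genes on chromosome X, read beside the 1 male library, each had both cKO libraries above both controls. So did 83.1% of the 77 genes and 19.4% of all genes. Rpl36a had 253 and 227 CPM in cKO and 213 and 168 CPM in control, and Rpl39 had 366 and 321 CPM against 309.7 and 229 CPM. Rps4x, which is located on X in mice and escapes inactivation in humans, had 1084 and 1022 CPM against 989.9 and 858 CPM. Rpl10 is given above. In each of the 4, the male library, cKO replicate 3, ranked second, as it did in most of the 77 genes.

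Paralogues of ribosomal protein genes are often limited to certain tissues. Rpl3l, a form of Rpl3 found in adult heart and skeletal muscle, was close to absent at this stage, at no more than 0.506 CPM, while Rpl3 had 1033 and 992 CPM in cKO and 942 and 854 CPM in control. Rpl10l and Rpl39l, known from the testis, were at 0 and at no more than 0.355 CPM. Rps27l, a paralogue of Rps27 and a p53 target, was present at 76.4 and 75.6 CPM in cKO and 66.0 and 51.1 CPM in control, a log2 fold change of 0.38 ± 0.12 (edgeR adjusted p = 0.545). Rpl36al had 119 and 110.0 CPM against 115 and 98.1 CPM, with overlapping groups, and Rpl36a had a log2 fold change of 0.33. Of the genes just outside the rule, Rps3a1 had 971 and 891 CPM in cKO and 846 and 698 CPM in control, a log2 fold change of 0.27 ± 0.11 (edgeR adjusted p = 0.698), and Rpl22l1 and Rpl7l1 had 0.36 and 0.11.

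Nearly all of these genes share sequence with other genes. A 75-base window was counted as a gene's own if it occurred in no other gene away from its locus. Genes that overlap the locus were passed over, though they held up to 54.9% of the windows (Rpl35). Over the GENCODE protein-coding transcripts of each gene, the median share of windows of its own was 74.2%. It was under 50% for 19 of the 81 genes, and it was 100% for Rps3, Rpl3l and Rpl39l, among others. The lowest were Rps27rt (9.67%), Rpl36a (15.4%), Rps6 (15.9%), Rpl23a (18.3%), Rpl13 (20.4%) and Rpl7a (22.6%). These shares depend on the transcripts taken: over only those listed in the table, an alternative chosen after seeing the data, they were 11.0%, 87.3%, 57.8%, 52.4%, 76.7% and 68.4%, and the lowest were Rps27 (1.48%), Rps27rt and Rpl3 (16.8%). In the table, 460 other genes away from these loci held at least 1 shared window, and 439 of them are annotated as pseudogenes. Of the 460, 298 had a count above 0 in some library and 162 were at 0 in all. In each library, the values of the 81 genes were not whole numbers in 67.9% to 76.5% of cases, against 13.9% to 16.9% of all rows and 29.0% to 32.6% of values above 0; an expected count is not whole where reads were divided between genes.

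Copies took a steady share of the counts. They held 0.695%, 0.653%, 0.619% and 0.515% of all counts in cKO replicates 2 and 3 and control replicates 2 and 3. Of the counts on genes and copies together, that was 19.3%, 19.4%, 19.7% and 19.1%, so the division as a whole did not move with the group. With the copies added, the share of all counts was 3.60% and 3.36% in cKO and 3.14% and 2.70% in control, or 3.48 ± 0.170% against 2.92 ± 0.309% (SD, n = 2 each). The difference between the groups was 0.560 percentage points with the copies and 0.453 without them.

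For some genes nearly all the counts were on a pseudogene. A gene and its copies are called a family here, with Rps27 and Rps27rt as 1 family. Of the 71 families with a copy, the ribosomal protein gene held under 50% of the counts in 11 and over 90% in 42. The 42 include the family of Rps27 and Rps27rt, where counts on either gene were taken as those of the ribosomal protein gene. Rpl12 held 6.68% on average, Rpl31 7.73%, Rpl27 8.18%, Rpl5 8.36% and Rps6 8.78%. Rpl5 had 88.3, 79.9, 73.0 and 66.5 CPM in the order cKO 2, cKO 3, control 2 and control 3, while its copy Gm15500 had 925, 842, 849 and 747 CPM. Gm10275, a copy of Rpl12, had 439.9, 399.6, 353 and 302 CPM in the same order, against 28.7, 29.5, 28.9 and 20.0 CPM on Rpl12. Gm10275 repeated the order of libraries seen in the set, while in Gm15500 the groups overlapped. The other copies with the highest counts had log2 fold changes of 0.23 (Rpl31-ps8), 0.21 (Rpl10a-ps1), 0.35 (Rpl15-ps3), 0.19 (Gm7536, a copy of Rpl27a) and 0.15 (Rpsa-ps10), and none was called. With Gm15500 added, the family of Rpl5 had a log2 fold change of 0.16 ± 0.10, and the family of Rpl12 had 0.35 ± 0.11.

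Rps27, which encodes a zinc-finger protein of the small subunit, was listed at 0 in every library, and all counts were on the retrotransposed copy Rps27rt. Rps27rt (ENSMUSG00000050621) had 262 and 221 CPM in cKO and 218 and 156 CPM in control, a log2 fold change of 0.37 ± 0.15 (edgeR adjusted p = 0.702). As the stretch printed above shows, these genes cannot be told apart by a read within the coding sequence. A 0 here therefore does not say that Rps27 was silent.

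Measured in percentage points, the division of counts between gene and copy was stable across libraries for most genes and not for a few. Of the 70 families with copies and with counts, the percent of the counts on the gene ranged by a median of 0.867 points over the 4 libraries. In 42 of them the gene held over 90% of the counts on average, which leaves the percent little room to range. The percent ranged by over 10 points in 5, namely Rpl34, Rpl29, Rps2, Rps13 and Rpl10. In Rps6 it ranged by 7.52 points, between small shares of 5.09% and 12.6%. These 5 include the 2 genes with a negative fold change and Rpl34, which had the second highest. They were singled out after their values had been seen.

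**Figure D2:**
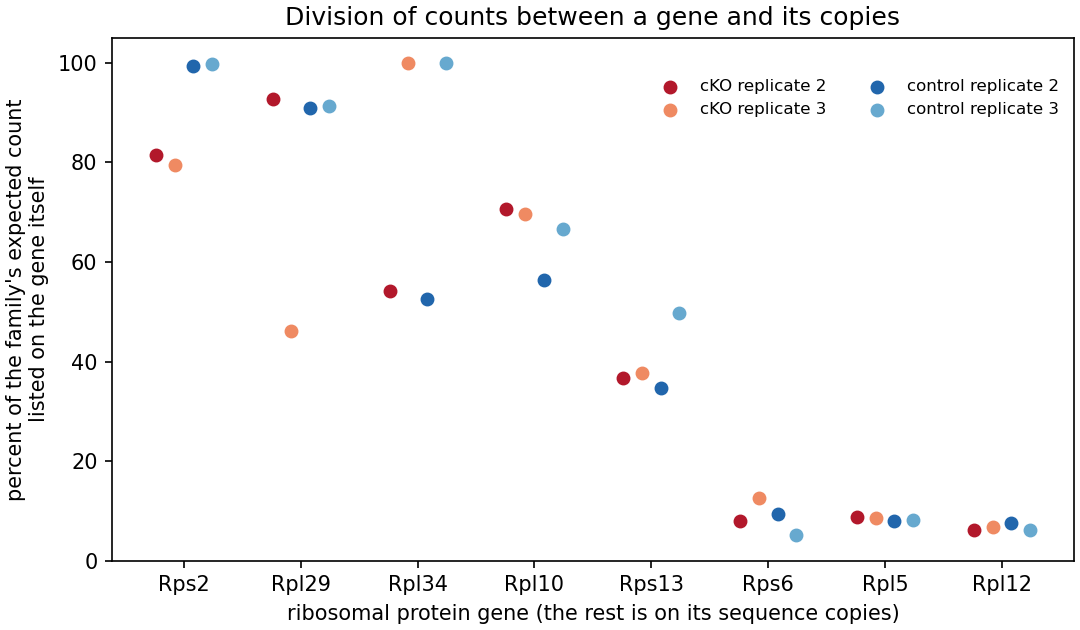
Percent of each family's expected count listed on the ribosomal protein gene itself, in each of the 4 libraries, for 8 genes; the rest of the count is on copies. Rps2 is near 80 in both cKO libraries and above 99 in both controls, Rpl29 drops to 46.2 in cKO replicate 3 alone, Rpl34 alternates between replicate numbers, and Rpl5 and Rpl12 stay under 10 in every library.

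Among these 5, the division did not overlap between the genotypes in Rps2 and, by a smaller margin, in Rpl10. Rps2 (ENSMUSG00000044533, GRCm38 chromosome 17, 24718116 to 24721929), an essential protein of the small subunit, had 468 and 445 CPM in cKO and 495 and 502 CPM in the controls. Its log2 fold change was -0.13 ± 0.08 (edgeR adjusted p = 0.788). Its processed pseudogene Rps2-ps10 on chromosome 18 had 984 and 2177 expected counts in the cKO libraries and 0 in both controls. This was at least 304.8-fold higher, with the controls set at a floor of 3 counts in each library. That bound covers counting error and not how reads were divided between the gene and its copy. It was the only copy of the 49 that passed the filter to be called (edgeR adjusted p = 6.92e-06), where 0.511% of all genes were called. Among the called genes there was thus this 1 ribosomal pseudogene and no ribosomal protein gene, counts too small to set against that share.

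Added together, Rps2 and its copies stood at 575 and 560.0 CPM in cKO and at 499 and 503 CPM in control. The sum had a log2 fold change of 0.18 ± 0.08 (edgeR adjusted p = 0.708), opposite in sign to that of Rps2 alone and like the rest of the set. The percent of the family's counts on Rps2 was 81.4 and 79.5 in cKO and 99.3 and 99.7 in control. Rps2 and Rps2-ps10 align over 893 of 906 coding bases with 5 differences, and 57.8% of the coding windows of Rps2 are shared. Rps2 lies 2.12 Mb from Nkx2-5, the locus that carries Cre. Rps10 and Rpl10a lie nearer to it on the same chromosome, and the percent of counts on the gene ranged there by 0.041 and 3.18 points over the libraries, against 20.2 points for Rps2. Whether position bears on the division was not tested.

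In Rpl29, which encodes a small basic protein of the large subunit, the division changed in 1 library. Rpl29 (ENSMUSG00000048758, chromosome 9, 106429454 to 106431568) had 346 and 159 CPM in cKO and 297 and 260.4 CPM in control. Its copy Gm13841 had 0 and 3113 expected counts in cKO and 0 and 3.16 in control, so nearly all its counts came from cKO replicate 3. Added together, the family had 373, 345, 327 and 285 CPM, with a log2 fold change of 0.23 ± 0.10 (edgeR adjusted p = 0.703). Rpl29 alone had -0.15 ± 0.29. With cKO replicate 3 left out, Rpl29 alone had 0.31, and with cKO replicate 2 left out it was called lower in cKO (-0.80, edgeR adjusted p = 0.0123, where 1.0% of 14060 genes were called).

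In Rpl34, also of the large subunit, the division followed the replicate number and not the genotype. Rpl34 (ENSMUSG00000062006, chromosome 3, 130726831 to 130730398) had 154 and 252 CPM in cKO and 128 and 164 CPM in control. Rpl34-ps1 had 1289 and 5.02 expected counts in cKO and 978 and 0 in control. Rpl34 alone had a log2 fold change of 0.48 ± 0.21 (edgeR adjusted p = 0.708) and overlapping groups. The sum had 285, 252, 244 and 164 CPM, without overlap, and 0.40 ± 0.16 (adjusted p = 0.694). With cKO replicate 2 left out, Rpl34 alone was called (0.79, edgeR adjusted p = 0.0245).

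Rps6 had the highest fold change of the set and also one of the smallest shares of its own counts. It had 64.2 and 95.1 CPM in cKO and 68.2 and 31.3 CPM in control, a log2 fold change of 0.69 ± 0.31 (edgeR adjusted p = 0.708), and the groups overlapped. Its copy Rps6-ps4, identical over the coding sequence, had 734, 658, 656 and 582 CPM. The sum had 799, 754, 725 and 614 CPM and a log2 fold change of 0.21 ± 0.10 (adjusted p = 0.727). The value of Rps6 alone rests on 8.03%, 12.6%, 9.40% and 5.09% of the family's counts. Rps13 was a milder case, with 36.7% and 37.7% of the counts on the gene in cKO and 34.7% and 49.8% in control.

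With every gene added to its copies, the set became more even. All 77 families that passed the filter had a positive log2 fold change, against 49.8% of all rows tested. In 73 both cKO libraries lay above both controls, against 19.4% of all rows. The median was 0.28, near the 0.27 of single genes, and the values ran from 0.10 (Rpl36al) to 0.44 (Rps14). Their standard deviation fell from 0.123 over genes to 0.082 over families. With edgeR 0 of the 77 families were called (0.527% of 13662 rows were called), and 43 had an unadjusted p under 0.05, against 7.09% of all rows.

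**Figure D3:**
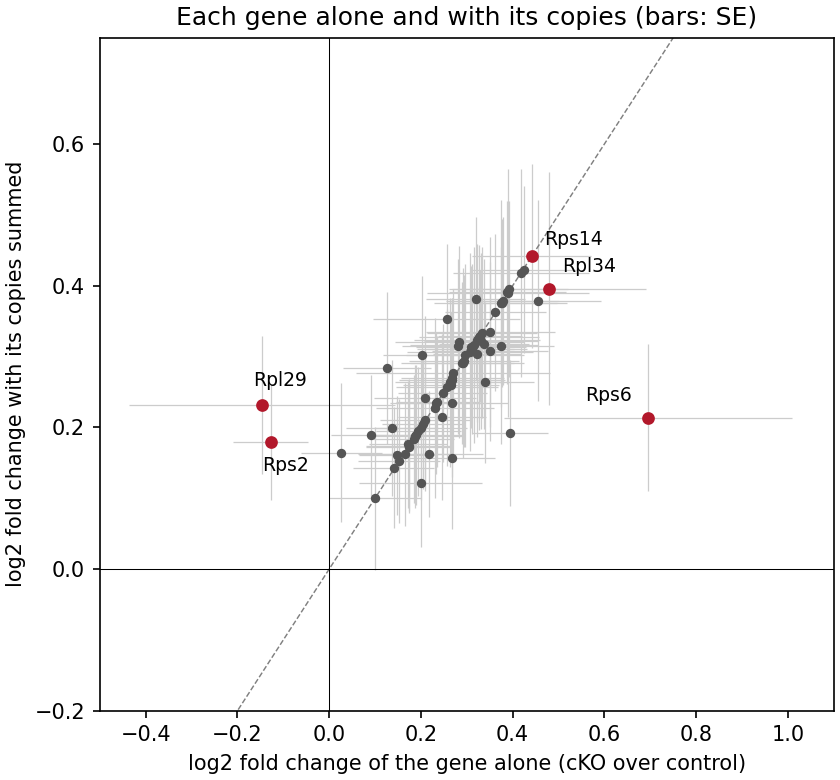
Log2 fold change (cKO over control) of each ribosomal protein gene alone on the x axis and of its family, the gene with its copies, on the y axis. The 77 genes that passed the filter are shown, apart from Rps27rt. Bars are SE and the dashed line marks equal values. Most genes lie on the line, while Rpl29 and Rps2 move from -0.15 and -0.13 to 0.23 and 0.18, and Rps6 moves from 0.69 to 0.21.

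Genes with more and with less shared sequence had similar fold changes. The 19 genes with under 50% of windows of their own had a median log2 fold change of 0.27, with a range of 0.09 to 0.69. In 16 of them both cKO libraries lay above both controls without overlap, against 19.4% of all genes. The 14 that passed the filter with at least 90% of windows of their own had a median of 0.29 and a range of 0.17 to 0.48, and 13 had no overlap. They include Rpl13a, which had 36.4% of its windows also in genes that overlap its locus. The highest value in this class was that of Rpl34, whose division from its copy is described above. Of the 49 copies that passed the filter, 42 had a positive log2 fold change, against 49.9% of all genes, and the median over the 49 was 0.19. One of these 42, Gm14303, a copy of Rps29 named after its values were seen, had 101 and 124 expected counts in cKO and 19.6 and 14.3 in control (2.05 on the log2 scale, edgeR adjusted p = 0.0734).

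Levels were compared between genes per length, as the count over the median length of the gene's protein-coding transcripts, scaled to the same sum in every library (units like those of TPM). The median level over the genes was 635, and the levels of single genes spanned 30.2 to 1813. The highest levels were those of Rplp0 (1813 ± 96.4), Rpl13a (1642 ± 181), Rpl3 (1642 ± 101), Rps24 (1473 ± 222) and Rps4x (1421 ± 106), each as mean ± SD over the 4 libraries. The ranges of mean ± SD, which pool both groups, overlapped for all neighbours in this order. Compared library by library, Rplp0 lay above Rpl13a and Rpl3 above Rps24 in every library. The order of the other neighbours changed between libraries.

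The lowest levels per length were those of Rpl12 (30.2 ± 4.62), Rpl27 (42.7 ± 8.49), Rpl31 (66.2 ± 7.81), Rpl5 (74.9 ± 7.68) and Rpl27a (82.3 ± 1.18). The ranges of mean ± SD overlapped for Rpl12 and Rpl27, for Rpl31 and Rpl5 and for Rpl5 and Rpl27a. Compared library by library, Rpl27 lay above Rpl12 and Rpl5 above Rpl31 in every library, while the order of Rpl5 and Rpl27a changed. In each of these 5, under 20% of the family's counts were on the gene, from 6.68% for Rpl12 to 17.3% for Rpl27a. Rps6, at 103 per length, was in the same state. The level of these genes in the table counts only the reads that were left on the gene.

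**Figure D4:**
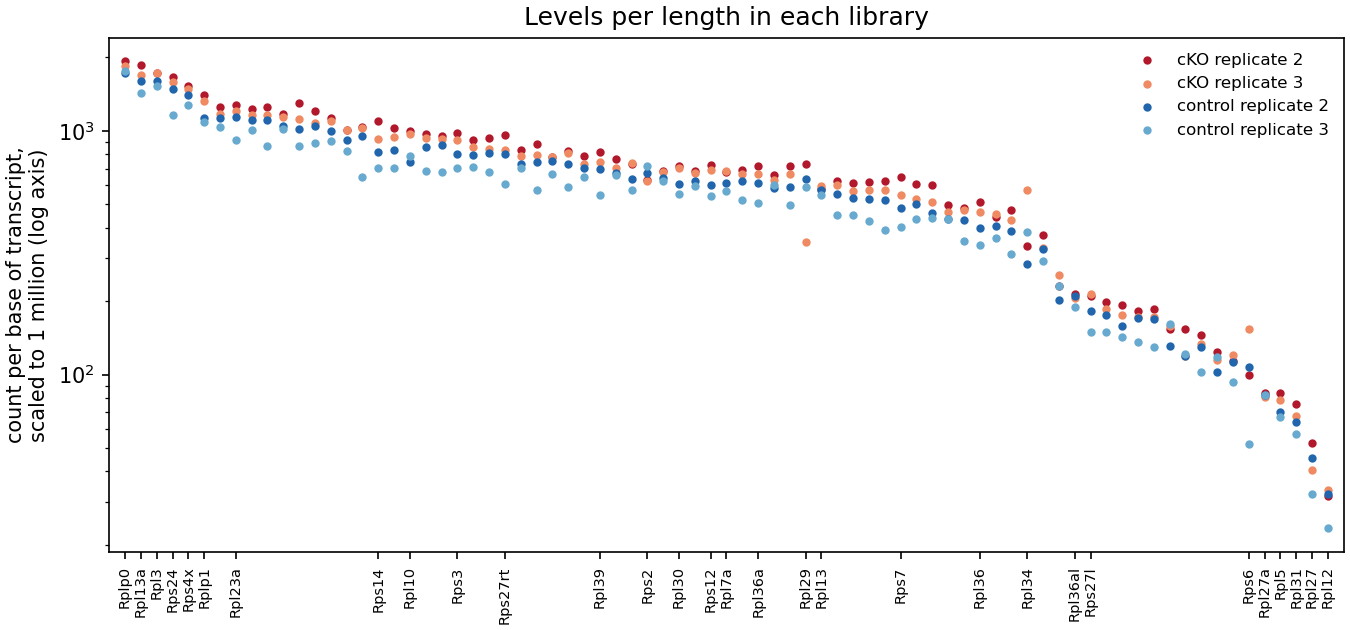
Expected count per base of transcript, scaled to the same sum in every library, on a log axis, for the 77 ribosomal protein genes ordered by their mean; points are single libraries, and the genes with a name on the axis are those the text names by rule. cKO replicate 2 is mostly on top and control replicate 3 mostly at the bottom; Rpl29, Rpl34 and Rps6 are the genes where single libraries break away.

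Other genes of the translation machinery had lower medians than the ribosomal protein genes. In each of the following lists edgeR called 0 genes, where it called 0.511% of all genes. Among 10 partners and fusion precursors of the ribosome, 3 had both cKO libraries above both controls (19.4% of all genes did), and the median log2 fold change was 0.12. Rack1, which sits on the small subunit, had 752 and 707 CPM against 654 and 601 CPM, and 0.22 ± 0.09. Of the 10, 9 had a positive log2 fold change, against 49.9% of all genes. The exception was Fau, which encodes a ribosomal protein fused to a ubiquitin-like protein, at -0.14 ± 0.29. The counts of Fau were not summed with those of any copy. The 5 snoRNA host genes with a row came closest to the ribosomal protein genes. All 5 were positive, 3 without overlap, with a median of 0.23, and Gas5, whose host message carries a pyrimidine tract at its start, had 171 and 176 CPM against 151 and 129 CPM.

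Genes that make or use ribosomes but are not part of them had medians nearer to that of all genes. The share of all genes with both cKO libraries above both controls was 19.4%, and with both below 18.8%. Of 40 ribosome biogenesis factors, 10 had both cKO libraries above both controls and 0 had both below, with a median log2 fold change of 0.043, and Wdr12, which acts in large-subunit assembly, had the smallest p (0.24 ± 0.10). Of 30 initiation factors 12 were above and 2 below, with a median of 0.045, led by Eif3k (0.23 ± 0.09). Of 9 elongation and release factors 3 were above and 1 below, with a median of 0.038, led by Eef1b2 (0.26 ± 0.11). Of 20 genes of RNA polymerase I transcription 9 were above and 2 below, with a median of 0.092, led by Polr2f, a subunit shared by the polymerases (0.32 ± 0.13). Of 18 genes that control ribosomal protein synthesis 2 were above and 3 below, with a median of -0.039, and Mycn, a transcription factor that promotes growth of the embryonic heart, had 33.8 and 43.1 CPM in cKO and 48.0 and 50.8 CPM in control (-0.35 ± 0.12, edgeR adjusted p = 0.623). The ribosomal proteins of mitochondria are a separate set: of 30, 16 were above and 1 below, with a median of 0.12, led by Mrps15 (0.22 ± 0.09).

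Markers of the cell types that a ventricle can hold were summed per library to set beside these values. Erythroid markers, of which 9 of 10 had a row, summed to 2353 and 5629 CPM in cKO and 4499 and 5149 CPM in control. They were lowest in cKO replicate 2 and highest in cKO replicate 3, while most ribosomal protein genes were higher in both of these libraries than in the controls. Endothelial and endocardial markers summed to 1053 and 956 CPM in cKO and 1133 and 1194 CPM in control, with 5 of 6 lower in both cKO libraries, where 18.8% of all genes were. Cardiomyocyte markers summed to 36769 and 32982 CPM against 36521 and 35331 CPM, with 0 of 8 higher and 3 of 8 lower in both cKO libraries. Epicardial markers summed to 316 and 235 CPM against 276 and 308 CPM, atrial ones to 2553 and 2326 CPM against 2567 and 2170.1 CPM, and those of cushion mesenchyme to 142 and 342 CPM against 247 and 270.3 CPM. The part of cell makeup in the values of the ribosomal protein genes was not tested.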

How the data were processed

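The authors deposited expected counts, estimated gene by gene, in which a read that fits several genes is split among them. The tools named by the submitters' processing notes are RSEM 1.2.3, CASAVA 1.8.2 and cutadapt 1.3, with build GRCm38. Annotation and settings: not given in the sources used here. Per the labels' protocols, TruSeq v2 libraries from 500 ng of total RNA, a kit that does not mark strand, were read as single 75-base reads. Symbols, transcripts and lengths came from GENCODE release 21 for mouse (GRCm38), which named 36429 of 38293 rows; rows without a symbol held 0.305% to 0.318% of counts. Of 92484 transcript identifiers in the table, 95.5% were in that release.

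Expected counts were rounded, filtered by edgeR's filter by group (minimum count 10, total 15) and scaled by TMM. The 2 cKO and 2 control libraries were compared with edgeR 4.0.16 (quasi-likelihood test, R 4.3.3), Benjamini-Hochberg adjustment over all 13711 genes and a threshold of 0.05. SE is the log2 fold change over the square root of F. Copies are genes that share at least 1 exact 75-base window with a ribosomal protein gene, on either strand, away from its own locus; families add gene and copies. Steps were tested on simulated data. Alternatives were DESeq2 1.42.0, limma 3.58.1, other scalings and filters, the replicate number as a block, each library left out, copies by BLAST 2.17.0 and 50-base windows. Depth limits precision, and the lower bound against 0 covers counting error only.

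The genes and lists were chosen with earlier results of these data known. Genes named are the 8 with the smallest p, the 4 highest and 4 lowest fold changes, the 5 highest and 5 lowest levels per length, the 6 with the fewest own windows, those on chromosome X, paralogue pairs, called copies and the 8 most abundant copies, and the smallest p of each list; other names were chosen after their values were seen. A few genes are not reported here.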

Additional observations from a re-analysis of the deposited data

How the results depend on the processing

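The median log2 fold change of the 77 genes kept its sign in every alternative run, between 0.14 and 0.42. Of 528 values of 39 named genes under alternatives, 517 kept their direction and their side of the threshold. The number of ribosomal protein genes called was 0, but 1 with DESeq2 and 0 to 2 with each library left out. Leaving out a library moved the genes with an unadjusted p under 0.05 from 40 to between 7 and 61, the positive fold changes from 75 to between 73 and 76, and the difference in share of counts from 0.453 to between 0.287 and 0.620 percentage points. For families, added after seeing the data, 0 to 1 were called, the 1 without control replicate 2.

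The median share of windows of their own was 66.7% with 50-base windows, and 82.2% over only the transcripts listed in the table, an alternative chosen after seeing the data, where 11 genes were under 50%. The median level per length was 686 with the longest transcript. Signs turned for Rpl27a (-0.019 without cKO replicate 2, -0.0054 without control replicate 3, and up to 0.077 without cKO replicate 3), Rpl36al (-0.0097 without control replicate 3, -0.0097 to 0.22), Rpl29 (0.31 without cKO replicate 3, -0.80 to 0.31, 0.23 with copies summed by windows or by BLAST) and Rps2 (0.18 with copies summed by either). The cause was not tested for the libraries; for the sums it lies in their construction. With the replicate number as a block, 0 genes were called and the median was 0.29; same-numbered samples deviated together weakly (correlation 0.11 over all genes and 0.029 over these), no label gives the numbers a common source, and the block changed no call.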
